A study of Mus musculus with 24 samples.

Results

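Cyclins are the timed partners of the cyclin-dependent kinases, and the genes described here are the mouse cyclins A2, B1, B2, D1, D2, D3, E1 and E2 (Ccna2, Ccnb1, Ccnb2, Ccnd1, Ccnd2, Ccnd3, Ccne1, Ccne2) together with a pair of inhibitors of those kinases, Cdkn1b and Cdkn2c. They were chosen by name from the cell cycle machinery, with no measured value in the rule, though with earlier results of these data known. Of the 10 listed genes, 9 were analysed, out of 11597 genes with a probe set that passed the filter on low signal, and Ccnb1 was not analysed here. The 9 genes carried 19 probe sets, of which 18 passed the filter. A gene is represented by its passing probe set with the highest mean signal, and its other probe sets are given where they differ.

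The D cyclins appear when a resting cell receives growth signals. With Cdk4 or Cdk6 they begin the phosphorylation of the retinoblastoma protein, which frees E2F factors to transcribe the E cyclins and other genes of DNA synthesis. Cyclin E with Cdk2 carries the cell into S phase, cyclin A2 acts with Cdk2 and Cdk1 through S and G2 phase, and the B cyclins with Cdk1 drive mitosis, after which ubiquitin ligases destroy them. The product of Cdkn1b, p27, holds back the Cdk2 complexes and is itself regulated largely at the level of protein, and the product of Cdkn2c, p18, binds Cdk4 and Cdk6. In the healthy adult lung most cells are at rest, and division of epithelial, endothelial and immune cells follows injury by ozone (O3).

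Lung RNA of male mice was profiled on 24 Affymetrix arrays, 1 mouse per array and 3 mice in each of 8 groups. Tnfr+/+ mice were C57BL/6J wild types and Tnfr-/- mice (strain B6.129S-Tnfrsf1a tm1Imx Tnfrsf1b tm1Imx/J) lacked both TNF receptors (Tnfrsf1a and Tnfrsf1b) in every cell of the body, so effects of either receptor or of any one cell type cannot be told apart. Mice of each genotype, 6 to 8 weeks old, breathed filtered air or 0.3 ppm O3 without a break for 24, 48 or 72 h, to ask how signalling through these receptors shapes the response of the lung to O3. A single air group per genotype served all 3 exposure times, so the comparisons with air within a genotype share their control mice. In bulk tissue, more cells of a type and more RNA per cell cannot be told apart. Signals below are normalized array intensities on a linear scale, a log2 difference of 1 is a doubling, SE and 95% confidence interval come from the limma fit, and a difference is called where its p, after Benjamini-Hochberg adjustment across every probe set tested, is under 0.05. Levels are never compared between genes, since probe sets differ in brightness.

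The arrays carried lung markers at full strength: the summed signal of 7 markers of alveolar type 2 cells lay between 106000 and 120700 on all 24 arrays. A probe set of Tnfrsf1b (1418099_at) read 152 to 266 in Tnfr-/- lungs and 356 to 525 in Tnfr+/+ lungs, while the second one of that gene and that of Tnfrsf1a overlapped between genotypes; whether any of them lies in the disrupted part is not known here. The lung of Tnfr+/+ replicate 1 at 72 h was unlike the others: its correlation with the remaining arrays averaged 0.909, against 0.932 to 0.947 for the rest, and it had a Gapdh 3'/5' ratio of 4.45 against 0.890 to 1.74. Its actin 3'/5' ratio of 1.18 lay within the range of the rest (1.005 to 1.952). Values without that lung are given where they changed a call of a member's probe set.

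Promoter windows from RefSeq (GRCm38.p6, 250 bases before to 50 after the start) matched 6 of the 10 genes. Windows are shown for 3 of the analysed members: a mitotic cyclin whose signal moved with O3 (Ccnb2), a G1/S cyclin that moved less evenly (Ccne1) and an inhibitor whose difference from air was not called at any time (Cdkn1b). All are written 5' to 3' on the strand of the gene, and capitals mark the letters searched for on both strands, TTTGAA or TTCGAA (the CHR element of G2 genes) and CCAAT (the CCAAT box, ATTGG in reverse). Ccnb2 lies on the minus strand at chr9:70421505-70421804, Ccne1 on the minus strand at chr7:38107441-38107740 and Cdkn1b on the plus strand at chr6:134920151-134920450.
Ccnb2: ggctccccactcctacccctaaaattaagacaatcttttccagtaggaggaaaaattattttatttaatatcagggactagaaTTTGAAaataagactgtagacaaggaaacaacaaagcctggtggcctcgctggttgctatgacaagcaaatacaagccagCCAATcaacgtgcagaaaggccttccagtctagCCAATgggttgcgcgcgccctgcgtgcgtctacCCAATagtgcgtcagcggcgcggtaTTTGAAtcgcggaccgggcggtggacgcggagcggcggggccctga
Ccne1: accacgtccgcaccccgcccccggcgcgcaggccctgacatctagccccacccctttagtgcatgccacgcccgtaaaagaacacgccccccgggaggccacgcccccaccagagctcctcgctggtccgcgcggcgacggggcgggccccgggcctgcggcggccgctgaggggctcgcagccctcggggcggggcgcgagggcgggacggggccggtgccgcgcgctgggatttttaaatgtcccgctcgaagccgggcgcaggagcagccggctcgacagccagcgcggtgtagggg
Cdkn1b: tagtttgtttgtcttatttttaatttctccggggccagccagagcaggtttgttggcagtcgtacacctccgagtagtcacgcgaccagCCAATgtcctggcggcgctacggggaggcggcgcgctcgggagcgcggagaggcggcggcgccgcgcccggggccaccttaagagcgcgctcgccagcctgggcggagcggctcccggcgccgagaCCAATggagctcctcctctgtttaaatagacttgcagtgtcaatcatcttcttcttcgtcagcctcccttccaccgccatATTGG
The Ccnb2 window held the CHR letters at -167 and +5 and CCAAT at -87, -54 and -21 relative to the start. The letters of a CHR element together with 2 or more CCAAT boxes were present in 2.31% of 32851 windows of the same length. The Cdkn1b window held 3 CCAAT boxes and no CHR element, and the Ccne1 window held neither. Of all windows, 19.2% held CHR letters and 37.4% held at least 1 CCAAT box. None of the windows of the 6 genes held the E2F letters searched for (TTTGGCGC, TTTCCCGC, TTTGGCGG or TTTCGCGC), which 2.37% of all windows held. Such matches are letters in a window and were not tested as binding sites.

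Cyclin A2 and cyclin B2 transcripts rose after 48 and 72 h of O3 in both genotypes and not after 24 h. For Ccna2 (1417911_at), signals in replicates 1, 2 and 3 of Tnfr+/+ lungs were 220.4, 179 and 242 in air, 245, 190.0 and 215 at 24 h, 542, 485.5 and 401 at 48 h, then 988, 668 and 807 at 72 h. The Tnfr-/- lungs gave 133, 176 and 161 in air, 167, 237.5 and 197 at 24 h, 501.5, 526 and 419 at 48 h, then 710.3, 838 and 959.6 at 72 h. All 12 lungs of 48 and 72 h lay at or above 401 and all 12 lungs of air and 24 h at or below 245, and within each genotype the 3 lungs of 72 h lay above the 3 of 48 h. The log2 difference from air in Tnfr+/+ lungs was 0.02 at 24 h (SE 0.19, adjusted p = 0.999, limma), 1.16 at 48 h (adjusted p = 0.00312), a 2.23-fold increase, and 1.93 at 72 h (adjusted p = 7.9e-06), a 3.82-fold increase. In Tnfr-/- lungs the values were 0.35 at 24 h (adjusted p = 0.466), 1.63 at 48 h (adjusted p = 4.59e-05) and 2.42 at 72 h (adjusted p = 5.82e-07), 3.09-fold and 5.34-fold increases at the later times.

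Ordered by group mean, Ccna2 ran from Tnfr-/- air (157 ± 22.1, SD, n = 3) through Tnfr-/- 24 h (200.4 ± 35.4), Tnfr+/+ air (214 ± 32.3) and Tnfr+/+ 24 h (217 ± 27.6) to Tnfr+/+ 48 h (476 ± 70.8), Tnfr-/- 48 h (482 ± 56.3), Tnfr+/+ 72 h (821 ± 160.2) and Tnfr-/- 72 h (836 ± 125). Neighbours in this order overlapped except at 2 places, between 24 and 48 h and between 48 and 72 h. The step from 24 to 48 h was called in Tnfr+/+ lungs (log2 difference 1.13, adjusted p = 0.0132) and in Tnfr-/- lungs (1.27, adjusted p = 0.0044). The first of these calls was lost when Tnfr+/+ 24 h replicate 2 or Tnfr+/+ 48 h replicate 1 or 2 was left out (adjusted p up to 0.0738). The step from 48 to 72 h, although its lungs did not overlap, was not called (0.78, adjusted p = 0.223, and 0.79, adjusted p = 0.459).

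A second probe set of Ccna2 (1417910_at) gave smaller values. Its log2 difference from air was 1.10 in Tnfr+/+ (adjusted p = 0.00822) and 1.00 in Tnfr-/- lungs (adjusted p = 0.0128) at 72 h, but 0.61 (adjusted p = 0.231) and 0.44 (adjusted p = 0.292) at 48 h. The call in Tnfr-/- lungs at 72 h was lost without Tnfr-/- air replicate 3 or Tnfr-/- 72 h replicate 3 (adjusted p up to 0.0729). The size of the rise therefore depends on the probe set, and its time of onset by a call does as well.

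Ccnb2 (1450920_at), the mitotic cyclin of the set, followed the same course. In Tnfr+/+ lungs its signals were 129, 163 and 96.3 in air, 118, 88.7 and 80.3 at 24 h, 300.1, 371 and 318 at 48 h, then 591, 420.4 and 466 at 72 h. The Tnfr-/- lungs gave 105, 113 and 103.5 in air, 116, 116 and 152 at 24 h, 266, 325 and 258 at 48 h, then 458, 414 and 426 at 72 h. All 12 lungs of the later times lay at or above 258 and the other 12 at or below 163. From air the log2 difference was 1.38 at 48 h (SE 0.19, adjusted p = 7.23e-04) and 1.95 at 72 h (adjusted p = 7.9e-06) in Tnfr+/+ lungs, that is 2.60-fold and 3.86-fold. In Tnfr-/- lungs it was 1.39 (adjusted p = 2.36e-04) and 2.01 (adjusted p = 3.37e-06), that is 2.63-fold and 4.04-fold. At 24 h the values were -0.42 in Tnfr+/+ (adjusted p = 0.801) and 0.25 in Tnfr-/- lungs (adjusted p = 0.655).

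The step of Ccnb2 from 24 to 48 h was 1.80 in Tnfr+/+ (adjusted p = 1.5e-04) and 1.15 in Tnfr-/- lungs (adjusted p = 0.0124), the latter lost without Tnfr-/- 24 h replicate 2 or 48 h replicate 2 (adjusted p up to 0.106). From 48 to 72 h it was 0.57 (adjusted p = 0.385) and 0.62 (adjusted p = 0.73), not called. With the lungs of 48 and 72 h set against air as a mean over both genotypes, Ccna2 was higher by 1.78 (SE 0.11, 95% confidence interval 1.54 to 2.02, adjusted p = 8.14e-09) and Ccnb2 by 1.68 (SE 0.12, 1.44 to 1.92, adjusted p = 2.14e-08), 3.44-fold and 3.21-fold. These 2 cyclins rose by amounts whose intervals overlap.

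**Figure D1:**
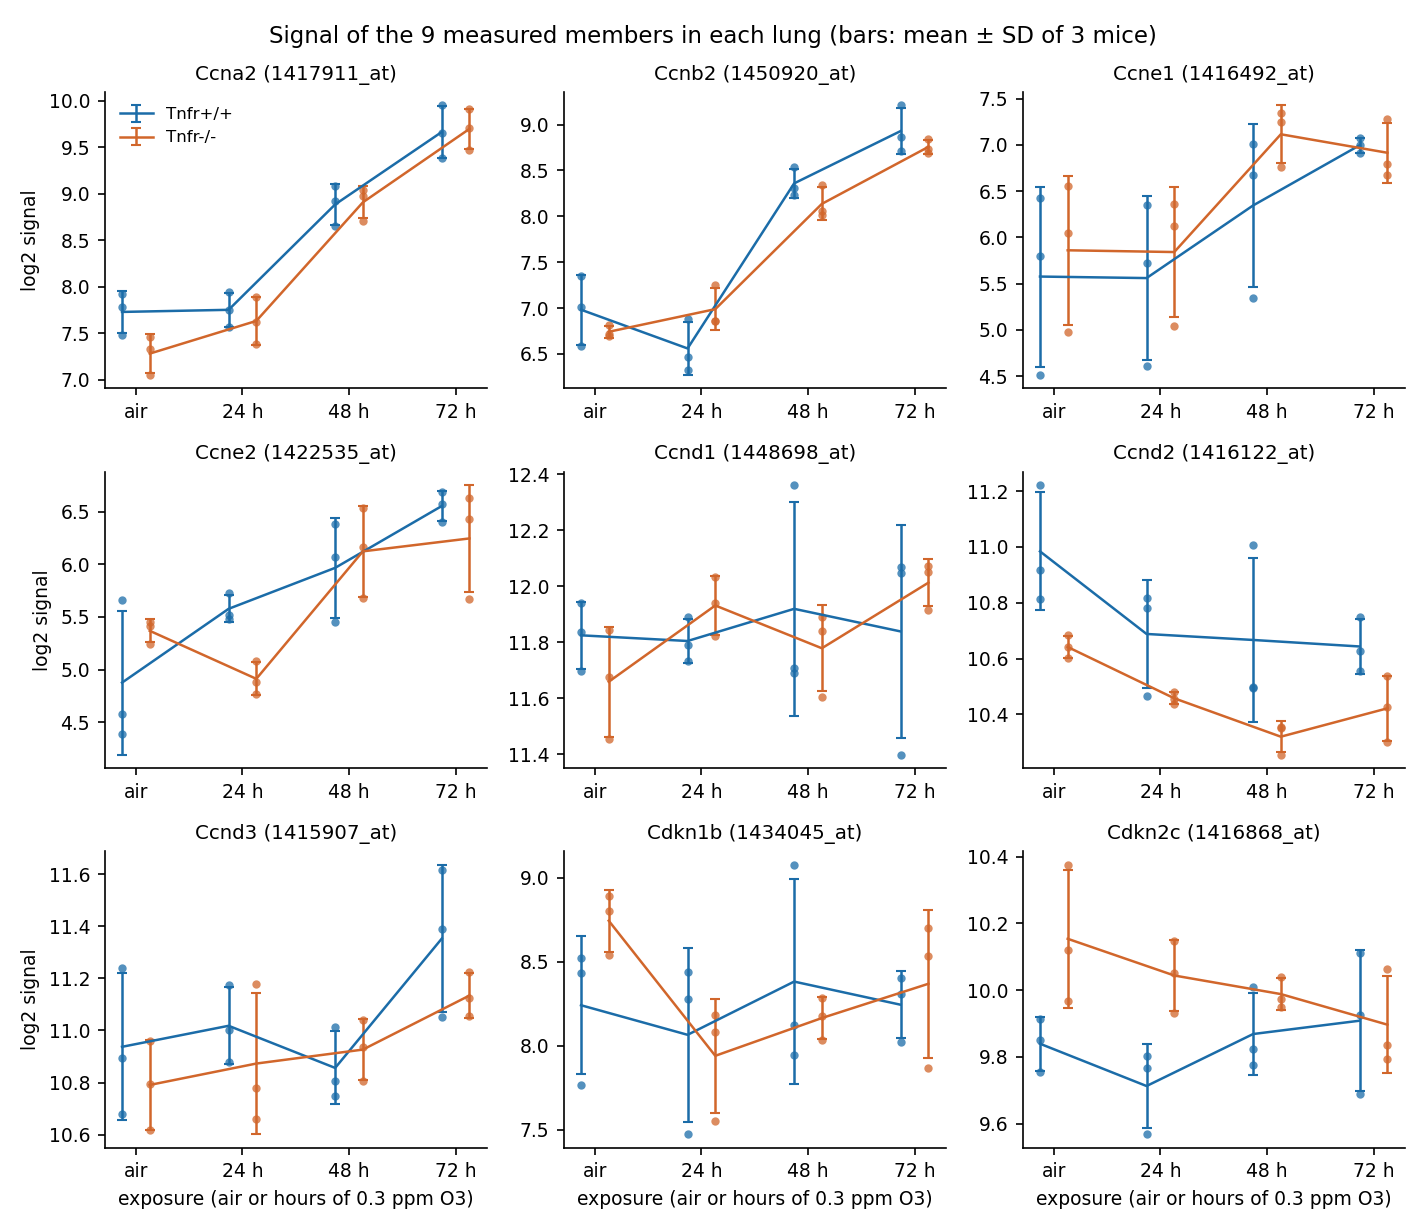
Normalized signal (log2) of the 9 analysed genes in every lung, 1 panel per gene. Exposure (air, 24, 48 and 72 h) runs along the horizontal axis, with the genotypes side by side in different colours. Points are single lungs and bars the mean ± SD of 3. Ccna2 and Ccnb2 separate the 12 lungs of 48 and 72 h from the 12 lungs of air and 24 h, whereas for Ccnd1, Ccnd3 and Cdkn1b those sets of 12 lungs overlap.

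The E cyclins, which open S phase, were dim and scattered, and were also higher at the later times. Ccne1 (1416492_at) fell below the 20th percentile of all values on 5 of 24 arrays and Ccne2 (1422535_at) on 14 of 24. For Ccne2 in Tnfr+/+ lungs the signals were 50.5, 21.0 and 23.9 in air, 44.8, 45.9 and 52.9 at 24 h, 67.1, 83.3 and 43.7 at 48 h, then 84.7, 94.97 and 103 at 72 h. The Tnfr-/- lungs gave 43.6, 37.9 and 42.6 in air, 29.6, 27.3 and 33.8 at 24 h, 92.5, 71.6 and 51.1 at 48 h, then 86.5, 99.1 and 51.0 at 72 h. Every Tnfr+/+ lung of 72 h lay above every air lung, and so did every Tnfr-/- lung of 48 and 72 h within its genotype. Only the Tnfr+/+ difference at 72 h was called (1.68, SE 0.31, adjusted p = 0.00467). Its size is uncertain, since all 3 Tnfr+/+ air lungs lay below the 20th percentile, and with these set to that percentile the rise was at least 1.80-fold. The value was 1.09 at 48 h (adjusted p = 0.0963, called without Tnfr+/+ air replicate 1), and in Tnfr-/- lungs 0.76 (adjusted p = 0.187) and 0.88 (adjusted p = 0.128).

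For Ccne1 the signals were 22.8, 85.6 and 55.5 in Tnfr+/+ air and 66.0, 94.0 and 31.6 in Tnfr-/- air. They reached 128, 135 and 121 in Tnfr+/+ lungs at 72 h, and 151, 162 and 108 in Tnfr-/- lungs at 48 h. At 24 h and in the other later groups they were 52.7, 81.7 and 24.3 (Tnfr+/+ 24 h), 129, 102 and 40.7 (Tnfr+/+ 48 h), 69.5, 33.0 and 82.0 (Tnfr-/- 24 h) and 155.5, 111 and 102 (Tnfr-/- 72 h). The Tnfr+/+ 48 h lungs overlapped air and the other later groups did not. No single time was called in either genotype, with log2 differences from 0.77 to 1.42 at 48 and 72 h (SE 0.53, adjusted p from 0.158 to 0.644). Over both later times and genotypes the values were 1.12 for Ccne1 (95% confidence interval 0.44 to 1.81, adjusted p = 0.0292, 2.18-fold) and 1.10 for Ccne2 (0.71 to 1.49, adjusted p = 6.4e-04, 2.14-fold). Every air lung of both genotypes lay below the 20th percentile for Ccne2, so the size of its mean rise is uncertain. The Ccne1 call was lost without Tnfr+/+ air replicate 1 or Tnfr-/- air replicate 3 (adjusted p up to 0.108).

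The D cyclins, which start the cycle from G1, were not called higher at their brightest probe sets, and their probe sets disagreed. For Ccnd1 the brightest probe set (1448698_at) ran from 2700 to 5260 over the 24 lungs, with group means from 3254 to 4137, and was not called in any comparison. Over both later times its difference from air was 0.15 (95% confidence interval -0.09 to 0.38, adjusted p = 0.455). Every Tnfr-/- lung of 72 h (3866 to 4304) lay above every Tnfr-/- air lung (2808 to 3680) at this probe set (log2 difference 0.35, adjusted p = 0.343). A dimmer probe set (1417419_at) read 686, 986 and 738 in Tnfr+/+ air and 1848, 1025 and 1427 at 72 h, and was called there (0.81, adjusted p = 0.0294) and over both later times (0.43, adjusted p = 0.024). The first call was lost without Tnfr+/+ air replicate 1 or 3 or 72 h replicate 1 or 3 (adjusted p up to 0.114), and the second without replicate 1 or 3 of either air group (up to 0.074).

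The Tnfr+/+ lung of 72 h replicate 1 moved against its neighbours by probe set of Ccnd1. It was the lowest of 24 at 1448698_at (2700.0) and at 1417420_at (1101, where the other Tnfr+/+ lungs of 72 h read 2548 and 2978), and the highest at 1417419_at. Without it 1417420_at was called in Tnfr-/- lungs at 72 h (0.52, adjusted p = 0.0281, against 0.288 with all lungs) and over both later times (0.28, adjusted p = 0.031, against 0.17 and 0.531), and 1448698_at was not (0.20, adjusted p = 0.18). The part of RNA quality in these differences was not tested.

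Ccnd2 went the other way. Its brightest probe set (1416122_at) read 1933, 2387 and 1801 in Tnfr+/+ air against 1442, 1447 and 2059 at 48 h and 1719, 1583 and 1504 at 72 h. In Tnfr-/- lungs it read 1644, 1554 and 1596 in air, 1306, 1309 and 1223 at 48 h and 1263, 1377 and 1485 at 72 h. No single time was called (log2 differences from -0.34 to -0.22 at 48 and 72 h, adjusted p from 0.206 to 0.463), and the mean over both times and genotypes was lower by 0.30 on the log2 scale (log2 difference -0.30, 95% confidence interval -0.48 to -0.12, adjusted p = 0.0282, 1.23-fold lower). That call was lost without Tnfr+/+ air replicate 2 or Tnfr-/- air replicate 1 or 3 (adjusted p up to 0.0953), and with only the compared groups in the fit (adjusted p = 0.051).

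A second Ccnd2 probe set (1434745_at) separated the groups. It read 1835, 1905 and 1812 in Tnfr+/+ air, 1209, 1337 and 980.3 at 48 h and 899.7, 1156 and 1222 at 72 h, and the log2 differences were -0.67 (adjusted p = 0.0165) and -0.77 (adjusted p = 0.00344). In Tnfr-/- lungs it read 1528, 1453 and 1432 in air, 1122, 991 and 1020.0 at 48 h and 1117, 1016 and 1080.0 at 72 h, with differences of -0.50 (adjusted p = 0.0465, lost without any 1 of its 6 lungs) and -0.46 (adjusted p = 0.0655). Without the Tnfr+/+ lung of 72 h replicate 1 in the fit the Tnfr-/- difference at 72 h was called as well (adjusted p = 0.0304), and so were those of 1455956_x_at at 72 h in Tnfr+/+ (-0.97, adjusted p = 0.0176, against -0.76 and 0.0524 with all lungs) and Tnfr-/- lungs (-0.67, adjusted p = 0.0412, against 0.0811). Over both later times the 2 probe sets 1434745_at and 1455956_x_at were lower by the same log2 difference of -0.60 (adjusted p = 8.58e-05 and 0.00419), and 1430127_a_at (-0.13, adjusted p = 0.465), 1448229_s_at (-0.23, adjusted p = 0.32) and 1416123_at (-0.31, adjusted p = 0.737) were not called. The last lay below the 20th percentile on 23 of 24 arrays, and a seventh probe set (1416124_at), below it on all 24, did not pass the filter. Markers of endothelial cells were lower as well over both later times, 4 of 9 measured, against 13.1% of all genes called in either direction. Among them was Kdr, the main VEGF receptor (log2 difference -0.62), and the part of these markers in the Ccnd2 signal was not tested.

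**Figure D2:**
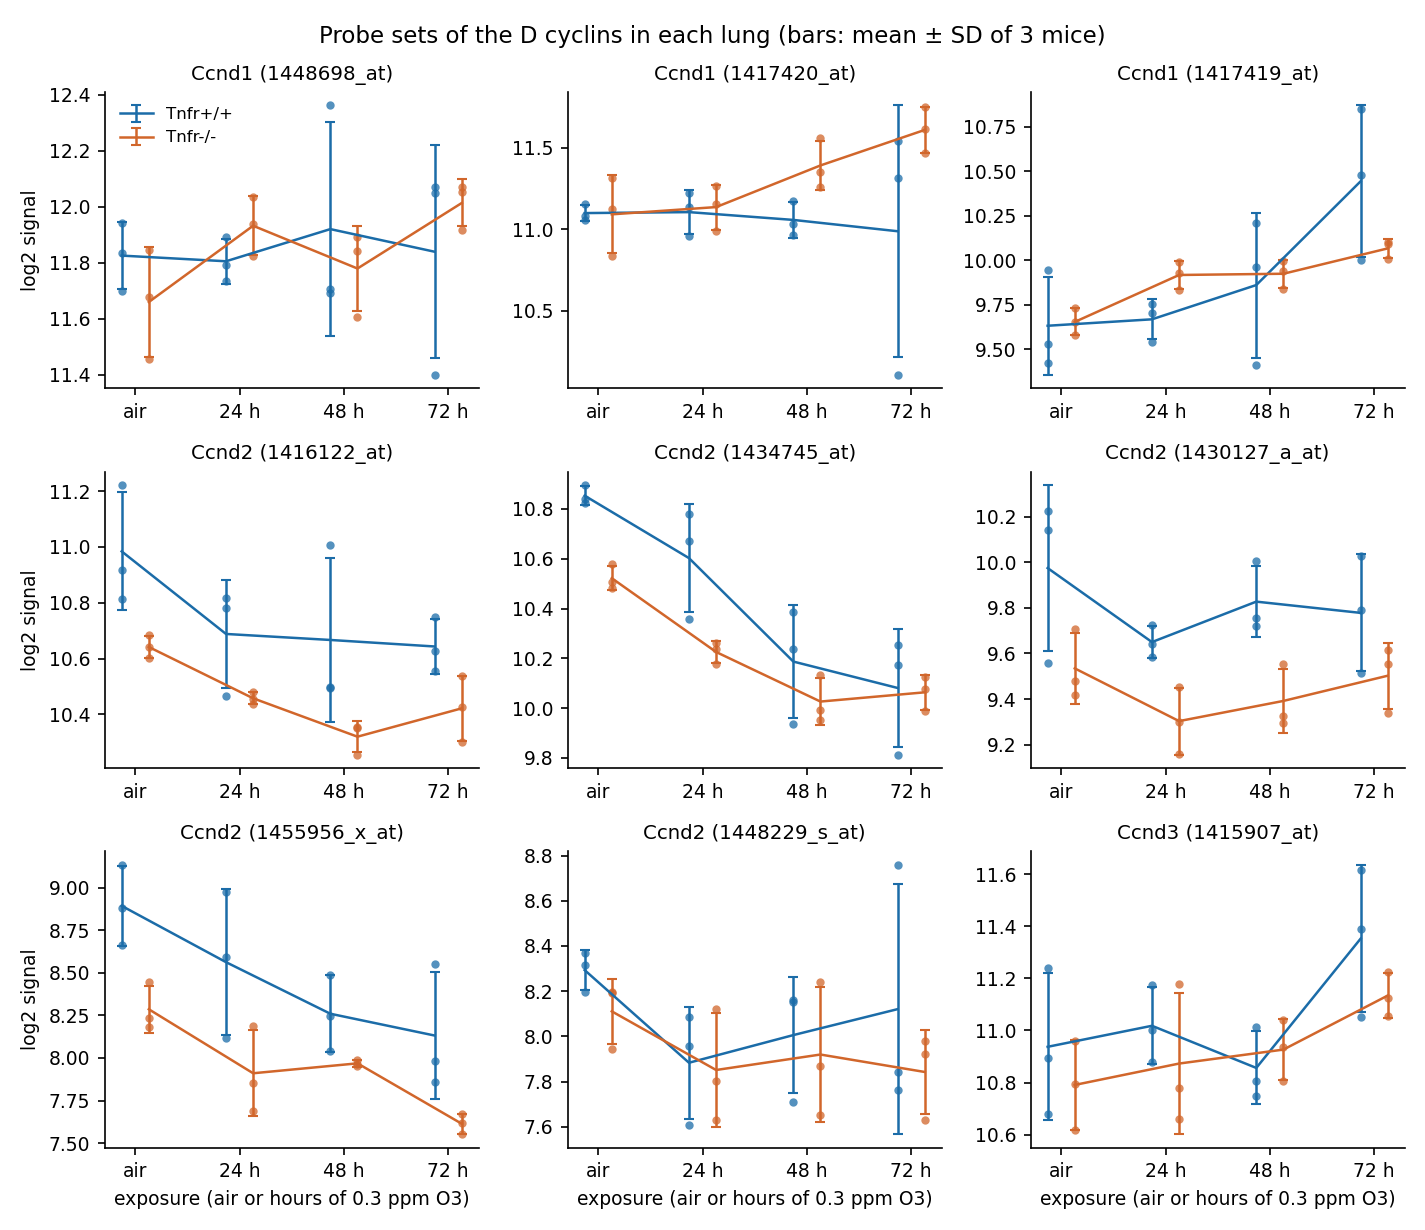
Normalized signal (log2) of the probe sets of Ccnd1, Ccnd2 and Ccnd3 in every lung, 1 panel per probe set, with points for lungs and bars for the mean ± SD of 3 lungs in each of 8 groups. The dim Ccnd2 probe sets 1416123_at and 1416124_at are not shown. The panel of 1434745_at shows all lungs of 48 and 72 h below the air lungs of their genotype, which the brighter 1416122_at does not in Tnfr+/+ lungs.

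Ccnd3 (1415907_at) ran from 1570.0 to 3137 with no call. Its highest group mean was 2647 ± 508 (SD, n = 3) in Tnfr+/+ lungs at 72 h, against 1986 ± 395 in air (log2 difference 0.42, adjusted p = 0.203), and the value over both later times was 0.20 (95% confidence interval -0.02 to 0.42, adjusted p = 0.229). Every Tnfr-/- lung of 72 h (2126, 2232 and 2391) lay above every Tnfr-/- air lung (1570 to 1991, log2 difference 0.34, adjusted p = 0.318). The Tnfr+/+ lungs of 72 h likewise lay above those of 48 h (log2 difference 0.50, adjusted p = 0.389). The highest Ccnd3 signal came from Tnfr+/+ 72 h replicate 1, the lung that was unlike the others. Without it the Tnfr+/+ log2 differences at 72 h were 0.28 from air and 0.36 from 48 h.

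Neither kinase inhibitor was called in any comparison. Cdkn1b (1434045_at), which encodes p27, read 367, 218 and 346 in Tnfr+/+ air, 348, 177.5 and 311 at 24 h, 246.5, 540.0 and 279 at 48 h, then 259.9, 339 and 316.5 at 72 h. Its Tnfr-/- values were 475, 372 and 447 in air, 291, 188 and 271 at 24 h, 289, 312 and 262 at 48 h, then 417, 370.5 and 234 at 72 h. Every Tnfr-/- lung of 24 and 48 h lay below every Tnfr-/- air lung, with log2 differences of -0.80 (adjusted p = 0.257) and -0.58 (adjusted p = 0.326), and Tnfr+/+ lungs showed no such separation. Over both later times and genotypes the value was -0.20 (95% confidence interval -0.60 to 0.19, adjusted p = 0.542). The highest Cdkn1b signal, 540.0, came from Tnfr+/+ 48 h replicate 2, whose lung also had the highest summed signals of B cell markers (11110 against 2808 to 7265 in the others) and of alveolar macrophage markers (33280 against at most 23610); their part in that value was not tested. A second probe set (1419497_at) lay below the 20th percentile on 17 of 24 arrays and was not called either.

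Cdkn2c (1416868_at), which encodes p18, had group means of 917, 841, 937 and 968 in Tnfr+/+ lungs and 1147, 1057, 1016 and 956 in Tnfr-/- lungs, in the order air, 24, 48 and 72 h. The value over both later times was -0.08 (95% confidence interval -0.25 to 0.09, adjusted p = 0.578).

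The number of the 9 genes called was counted for each comparison beside the share of all 11597 genes called. Against air in Tnfr+/+ lungs it was 0 at 24 h (0.0949% of all genes were called), 2 at 48 h (Ccna2 and Ccnb2, against 1.38%) and 3 at 72 h (with Ccne2, against 3.43%). In Tnfr-/- lungs it was 0 at 24 h (1.31%), and 2, again Ccna2 and Ccnb2, after 48 h (4.09%) and also 72 h (4.25%). Between 24 and 48 h the same 2 genes were called in Tnfr+/+ (0.267%) and Tnfr-/- lungs (0.474%), and between 48 and 72 h 0 in Tnfr+/+ (0%) and 0 in Tnfr-/- lungs (0.00862%). Over both later times 4 were called higher and 1 lower, against 13.1% of all genes in either direction, and the median log2 difference of the 9 genes was 0.20 against -0.05 for all genes. At an unadjusted p under 0.05 the zero counts at 24 h became 2 in Tnfr+/+ lungs (Ccnb2 lower and Ccne2 higher, against 5.94% of all genes) and 1 in Tnfr-/- lungs (Cdkn1b lower, against 13.2%), and those for the step from 48 to 72 h became 3 (8.29%) and 2 (5.6%). Fewer calls came from the arrays of a comparison alone. The methods' t-test after adjustment called 2 genes in Tnfr-/- lungs at 48 h and 2 at 72 h and 0 in each other comparison of 2 groups, and limma fitted on the compared groups alone called 0 in Tnfr+/+ lungs at 48 h (adjusted p = 0.148 for Ccna2 and 0.147 for Ccnb2) and at 72 h (0.0579 and 0.0718).

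**Figure D3:**
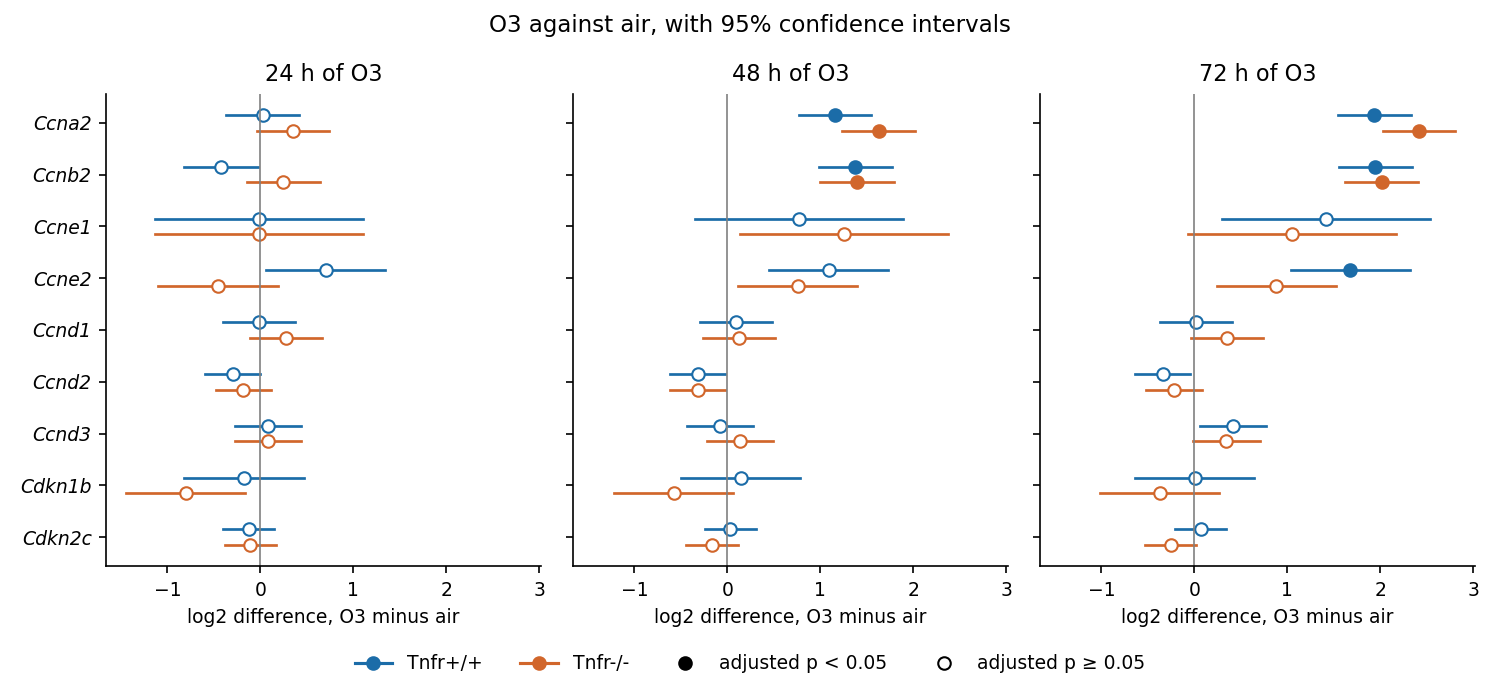
Difference from air (log2) of each of the 9 genes at 24, 48 and 72 h of O3, by genotype, with 95% confidence intervals from the limma fit; filled points were called at an adjusted p under 0.05. Filled points are Ccna2 and Ccnb2 at 48 and 72 h in both genotypes and Ccne2 at 72 h in Tnfr+/+ lungs.

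No member differed between genotypes by the adjusted test, in air (0 called, 0.069% of all genes), at 24 h (0, 1.05%), at 48 h (0, 0.147%) or at 72 h (0, 0.129%). At an unadjusted p under 0.05 there were 3 in air (6.51% of all genes), 3 at 24 h (13.2%), 1 at 48 h (9.41%) and 0 at 72 h (10.3%). In air they were Ccna2 (log2 difference of Tnfr-/- from Tnfr+/+ -0.45, adjusted p = 0.606), Ccnd2 (-0.34, adjusted p = 0.602) and Cdkn2c (0.31, adjusted p = 0.615). At 24 h they were Ccnb2 (0.43, adjusted p = 0.308), Ccne2 (-0.67, adjusted p = 0.333) and Cdkn2c (0.33, adjusted p = 0.254), and at 48 h Ccnd2 (-0.35, adjusted p = 0.38). The second Ccna2 probe set (1417910_at) gave log2 differences of 0.19 in air (adjusted p = 0.957) and -0.71 at 24 h (adjusted p = 0.129). At 24 h its signals were 169.6 to 199.4 in Tnfr-/- lungs and 269.3 to 392.8 in Tnfr+/+ lungs. The lungs of the genotypes did not overlap for 4 genes in air (Ccna2, Ccnd2, Cdkn1b and Cdkn2c, against 15.3% of all genes), 2 at 24 h (Ccne2 and Cdkn2c, 22.9%), and 1, Ccnd2, at 48 h (16.8%) and at 72 h (13%). The Ccnd2 difference at 1416122_at was below 0 in all 4 conditions (-0.34, -0.23, -0.35 and -0.22) without a call. In the same order it was -0.33, -0.38, -0.16 and -0.02 at 1434745_at, and -0.61, -0.65, -0.29 and -0.52 at 1455956_x_at. None of these was called, and their course over the conditions depended on the probe set. In the Tnfr+/+ air lungs the summed signal of 7 liver markers was 781 to 2205, against 260 to 673 on the other 21 arrays, and the part of that in the comparisons with this group was not tested.

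The response to O3 was compared between genotypes directly by the interaction term, the difference from air in Tnfr-/- minus that in Tnfr+/+ lungs. It was called for 0 of 9 genes at 24 h (0.0172% of all genes), 48 h (0%) and 72 h (0.00862%), and at an unadjusted p under 0.05 there were 2 (6.48%), 0 (5.64%) and 0 (5.19%). For Ccna2 it was 0.33 at 24 h, 0.47 at 48 h (95% confidence interval -0.08 to 1.02) and 0.48 at 72 h (-0.07 to 1.03). The second Ccna2 probe set (1417910_at) had the opposite sign, with -0.90 at 24 h (adjusted p = 0.607), -0.17 at 48 h and -0.10 at 72 h, also without a call. For Ccnb2 it was 0.67 at 24 h (0.11 to 1.23, adjusted p = 0.716), 0.02 at 48 h and 0.07 at 72 h. For Ccne2 it was -1.16 at 24 h (-2.06 to -0.25, adjusted p = 0.667), -0.34 at 48 h and -0.80 at 72 h. The Ccne2 signals of air and 24 h lungs were at most 52.9, near or below the 20th percentile (52.21), so the sizes of its terms are uncertain. Intervals this wide do not show that the genotypes responded alike.

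**Figure D4:**
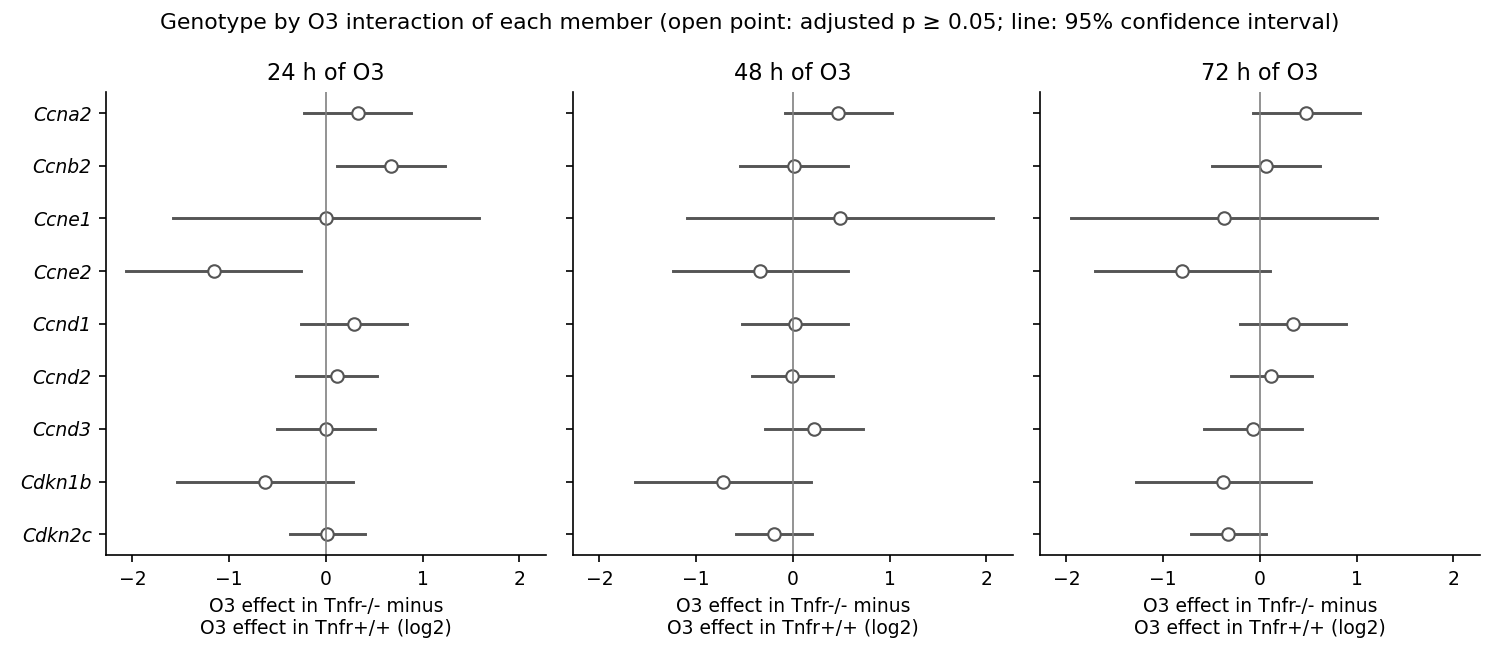
Genotype by O3 interaction (log2) of the 9 genes at 24, 48 and 72 h with 95% confidence intervals. All points are open, none being called, and the intervals of Ccnb2 and Ccne2 at 24 h lie on opposite sides of 0.

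Other genes of the cell cycle were counted in lists by role, for the mean of 48 and 72 h against air over both genotypes. In that comparison 13.1% of all genes were called in either direction, the share to set beside each count. The kinase partners gave 2 of 6 called higher, Cdk1 (at least 8.55-fold, adjusted p = 4.64e-05), the partner of cyclins A and B, and Cdk4 (0.27, adjusted p = 0.0343), the partner of the D cyclins, with a median of 0.15. Cdk1 was below the 20th percentile on 8 arrays, among them 5 of the 6 air lungs, which were set to that percentile for this bound (the fitted log2 difference was 3.67). It read 28.6 to 60.5 in the 6 air lungs and 512 to 749.8 in the 6 lungs of 72 h, while its Tnfr+/+ lungs of 48 h ran from 70.1 to 530.1. Among Cks subunits and Cdc25 and Wee1 type regulators, 3 of 6 were called, all higher: Cks1b (1.57, adjusted p = 8.14e-09), which helps the ligase that removes p27, Cks2 (0.99, adjusted p = 8.09e-06) and the Cdk1-inhibiting kinase Pkmyt1 (1.37, adjusted p = 0.00539). The median of that list was 0.61.

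Genes that turn cyclins over, or hold that turnover in check until chromosomes are attached, gave 4 higher and 2 lower of 16. Ube2c (1.88, adjusted p = 3.2e-09) and Cdc20 (1.55, adjusted p = 3.59e-07) serve the anaphase-promoting complex, and Mad2l1 (1.84, adjusted p = 1.74e-06) and Bub1b (1.98, adjusted p = 2.58e-05) restrain it. The genes called lower were Cdc23 (-0.49, adjusted p = 0.0217), a subunit of that complex, and Fbxw7 (-0.27, adjusted p = 0.0294), which targets cyclin E, and the median of the list was 0.12. Pttg1, the securin destroyed at anaphase, was called between genotypes in every condition, lower in Tnfr-/- lungs by log2 differences of -3.04 in air (adjusted p = 1.78e-09), -3.21 at 24 h (adjusted p = 6.8e-10), -2.26 at 48 h and -1.38 at 72 h, with an interaction at 72 h of 1.66 (adjusted p = 0.0163). The interaction call at 72 h was lost without the Tnfr+/+ lung of 72 h replicate 1, where 0 genes were called against 1 with all lungs. Pttg1, Cdc23 and Fbxw7 were named after their values were seen.

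Retinoblastoma and E2F genes gave 3 higher (E2f8 1.93, Rbl1 0.42 and Tfdp1 0.61) and 1 lower (Rbl2 -0.38) of 10, with a median of 0.09. Rbl2 encodes p130, the pocket protein of resting cells, and Rbl1 encodes p107, that of cycling cells. None of 7 genes for the factors that transcribe G2 genes was called (0 also at an unadjusted p under 0.05), among them Foxm1 (0.15, adjusted p = 0.223) and Mybl2 (0.19, adjusted p = 0.292). Of 14 other cyclins Ccnf was higher (1.34, adjusted p = 0.00206) and Ccni (-0.34, adjusted p = 0.0174) and Ccng2 (-0.41, adjusted p = 0.0313) were lower. Of 5 other kinase inhibitors 1 was called, Cdkn2d (0.34, adjusted p = 0.0316), and Cdkn1a, which encodes p21, read 0.09 without a call.

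**Figure D5:**
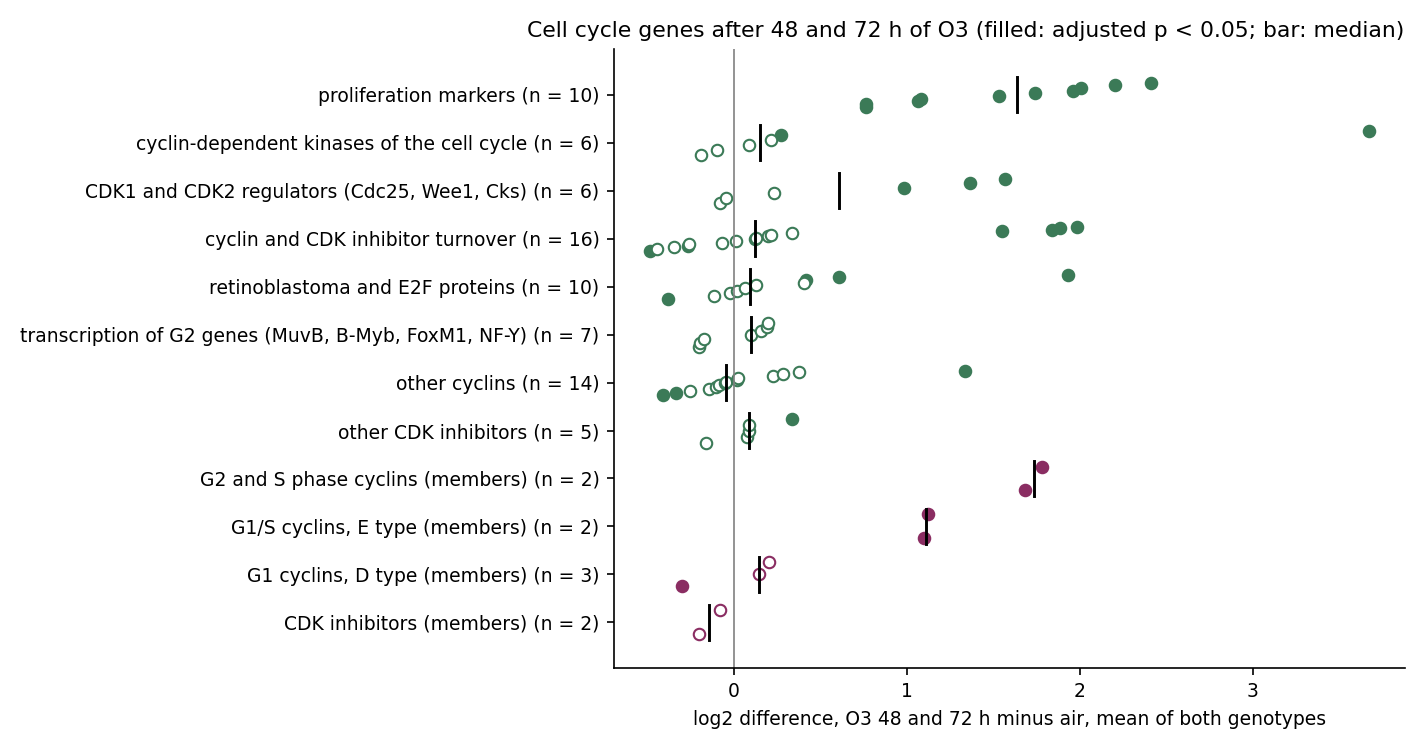
Difference from air (log2) over 48 and 72 h of O3 and both genotypes for each gene of 8 lists and of the members, with filled points called at an adjusted p under 0.05 and a bar at the median of each list. The 10 proliferation markers lie above 0 with filled points, and the medians of the other lists, those of the members left aside, run from -0.05 to 0.61.

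General markers of proliferation moved together, with 10 of 10 called higher and a median of 1.64. Among them were Rrm2, a subunit of ribonucleotide reductase (2.00, adjusted p = 4.47e-09), Mki67, the Ki-67 antigen (1.96, adjusted p = 7.02e-08), Top2a, a topoisomerase (1.53, adjusted p = 1.15e-07), and Plk1, a mitotic kinase (1.07, adjusted p = 1.56e-07). Their summed signal was 3058 to 3552 in air, 3667 to 4332 at 24 h, 5634 to 8175 at 48 h and 6477 to 9307 at 72 h. Of marker lists of single cell types, that of alveolar macrophages had the most genes called higher over both later times, 5 of 11, with 1 lower and a median of 0.59. Its summed signal was 10560 to 13690 in air, 12800 to 18190 at 24 h and 15480 to 33280 at 48 and 72 h, and among its genes Cd68 rose by 1.13 and Marco by 1.12. No marker of neutrophils (0 of 10, 1 at an unadjusted p under 0.05), B cells (0 of 9) or T cells (0 of 7) was called in that comparison. Of all genes 13.1% were called there in either direction. Which cells carried the cyclin transcripts, and the part of macrophage number in them, was not tested.

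Likeness over the 24 arrays is given as a description, since all genes share the groups and the libraries. The genes with the highest Pearson correlation with Ccna2 among 6595 genes at or above the median brightness were Pbk (r = 0.964), Rrm2 (0.957) and Mki67 (0.955). For Ccnb2 they were Mki67 (0.953), Cdc20 (0.942) and Ccna2 (0.939). For the dim E cyclins they were Rpa1 (0.874), Cks2 (0.768) and Mcm6 (0.758) with Ccne1, and Kpna2 (0.860), Ube2c (0.845) and Top2a (0.824) with Ccne2. The nearest genes of the other members were Park7 for Ccnd1 (0.703), Tspan9 for Ccnd2 (0.816), Pdia3 for Ccnd3 (0.747), Acadm for Cdkn1b (0.675) and Yae1d1 for Cdkn2c (0.755). Ccna2 and Ccnb2 correlated at 0.939 over all arrays and at 0.0999 once group means were removed, so their likeness lay in the group means.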

How the data were processed

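Lungs of 24 mice were hybridised to Affymetrix MOE430A arrays, 1 array per mouse. The authors deposited MAS5 signal intensities, linear values scaled per array in Affymetrix Expression Console per the labels' processing notes. Here quantile normalization across the 24 arrays, a floor of 1 and log2 were applied to these intensities, and a probe set was kept (20537) if 1 array or more reached the 20th percentile of all values. A model with 8 group means was fitted with limma 3.58.1 (R 4.3.3, 16 residual and 2.38 prior degrees of freedom), and p-values were adjusted by Benjamini-Hochberg over the probe sets of each of 18 comparisons. The number of arrays limits the precision. The replicate numbers name separate mice. The members and lists were chosen with earlier results of these data known. The rule for named genes took all members (10 planned, 9 analysed, every probe set), the up to 4 genes of each cell cycle list with the smallest adjusted p over both later times, and the 3 genes most correlated with each member. Cdc23, Fbxw7, Pttg1 and the markers Kdr, Cd68 and Marco were named outside it, after their values were seen. The marker lists were those of neutrophils, alveolar macrophages, lymphocytes, thymus, lung epithelium, endothelium, mesenchyme, liver, red blood cells and cardiac muscle. Of the platform annotation, 20351 of 22644 probe sets had 1 gene, 691 several and 1602 none. The fit was tested on simulated data. Alternatives changed the normalization, floor, filter, probe set rule, samples in the fit, array weights, replicate block, left-out lungs and the test of the methods.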

Additional observations from a re-analysis of the deposited data

How the results depend on the processing

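Counts are of the 9 analysed genes called. The directions and calls of all 162 gene values (9 genes in 18 comparisons) held with the signals as deposited, with cyclic loess, with log2(value + 16), with no filter and with a replicate block. Dropping the lung that stood apart from the fit, an alternative chosen after seeing the data, changed no call among the 117 gene values of comparisons that do not contain it; there it can move the adjusted p but not the difference. The numbers of the labels did not pair the lungs: deviations from group means correlated between same-numbered lungs from -0.181 to 0.115 (median 0.00462, 84 pairs) and between others from -0.129 to 0.201, and with the replicate block the count over both later times was still 5. A stricter filter (the median of all values in 3 arrays) dropped both E cyclins and left 3 genes called over both later times. With only the groups of a comparison in the fit, and with the methods' t-test after adjustment, the counts were 0 for Tnfr+/+ at 48 h, at 72 h and for 48 against 24 h, and 0 for Tnfr-/- at 48 against 24 h; fewer lungs entered those fits. Over both later times the fit of the compared groups alone called 4, without Ccnd2. At the methods' unadjusted threshold limma gave 3 and 2 genes for 72 against 48 h in Tnfr+/+ and Tnfr-/- lungs, 3, 3 and 1 between genotypes in air, at 24 h and at 48 h, and 2 for the interaction at 24 h, and the methods' t-test gave 1 for Tnfr-/- at 24 h, 2 for Tnfr-/- at 72 against 48 h and 2 between genotypes at 24 h. Counting a gene only if all its probe sets were called gave 1 at 48 h and 1 for 48 against 24 h in each genotype. Ccna2 dropped out there, not being called at 1417910_at. Counting any probe set gave 5 in Tnfr+/+ lungs at 72 h. That count added Ccnd2, lower at 1434745_at, and Ccnd1, higher at 1417419_at. The Ccnd1 call was lost without the lung that stood apart (adjusted p = 0.114, limma). Leaving out 1 lung at a time, the count ranged from 3 (without Tnfr-/- air replicate 3) to 5 over both later times, from 2 to 3 for Tnfr+/+ at 48 h, and from 1 to 2 for 48 against 24 h in Tnfr+/+ lungs (1 without 24 h replicate 2, 48 h replicate 1 or 48 h replicate 2) and in Tnfr-/- lungs (1 without 24 h replicate 2 or 48 h replicate 2); of 1242 such gene values 10 lost and 1 gained a call, and none changed sign as a call. Array weights added 1 call (Ccne2, Tnfr-/- 48 against 24 h, adjusted p = 0.0424). Signal over background limits the E cyclins and the second Cdkn1b probe set.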

Other observations

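Marker lists not described above gave the following counts over both later times against air, where 13.1% of all genes were called in either direction. Of 7 liver markers 1 was called higher and 4 lower, of 8 club cell markers 1 higher and 1 lower, and 1 was called lower among 6 of alveolar type 1 cells, 4 of ciliated cells, 9 of fibroblasts, 8 of smooth muscle, 3 of red blood cells and 8 of cardiac muscle. Among 7 markers of alveolar type 2 cells and 7 of thymus 0 were called in that comparison by limma. The Tnfr+/+ lung of 48 h replicate 2 had the highest summed thymus marker signal, 2623, against at most 1434 in the other 23 lungs. Without that lung Ccna2 at 48 h in Tnfr+/+ lungs had a log2 difference of 1.14 (adjusted p = 0.0171) and Ccnb2 of 1.29 (adjusted p = 0.00703).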
